A study of Mus musculus with 11 samples.

Results

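Glucuronidation and sulfation are the 2 conjugation reactions described here, through 10 mouse genes: Ugdh, Ugt2b1, Ugt2b5, Ugt2b34, Ugt2b36, Ugt2a3, Sult1a1, Sult1b1, Sult1d1 and Papss2. The genes were chosen by name, and their values are those of every probe set that the platform annotation gives to exactly 1 of these symbols. That gave 14 probe sets for 9 of the 10 genes, of 22626 probe sets and 12393 genes in all. Ugt2b36 has no probe set of its own in that annotation and was not analysed here. Of the 14 probe sets, 13 exceeded a log2 value of 4 in 5 or more samples and were tested, and each of the 9 genes kept at least 1.

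Livers of 6 Gsr-null mice were compared with livers of 5 wild-type (WT) mice. Gsr encodes glutathione reductase, which returns oxidised glutathione to its reduced form. The labels give the strain or background of both groups as C57BL/6J, the sex as male and the age as 15 to 20 weeks, and name no treatment, and the livers were taken in the afternoon. They call the samples biological replicates without saying how Gsr was disrupted or whether the WT mice were littermates. Expression is given per probe set on a log2 scale, so that a difference of 1 is a doubling. Levels of different probe sets are not comparable with each other.

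In hepatocytes, glucuronidation begins with UDP-glucose dehydrogenase (Ugdh), which oxidises UDP-glucose to UDP-glucuronate in the cytosol. UDP-glucuronosyltransferases (UGTs) in the endoplasmic reticulum then transfer the glucuronate to bilirubin, steroids, bile acids and drugs. Sulfation begins with the PAPS synthases, among them Papss2, which make the sulfate donor PAPS from ATP and sulfate. Cytosolic sulfotransferases (SULTs) transfer that sulfate to phenols, catecholamines, thyroid hormones and steroids. Both conjugations make such compounds more water-soluble and so easier to excrete in bile or urine.

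Most of the genes lie close together. In RefSeq's gene order (assembly GRCm38.p6), 8 of the 10 are on chromosome 5, Sult1a1 is on chromosome 7 and Papss2 on chromosome 19. Of the 8, all but Ugdh fall in a block of 12 neighbouring protein-coding genes, from Ugt2b34 to Sult1d1, and all 12 carry Ugt2 or Sult1 symbols. Ugt2b34 is next to Ugt2b1, Ugt2b36 next to Ugt2b5, and Sult1b1 next to Sult1d1. The UGTs of the block are close relatives, so a probe set ending in _s_at, such as 1 of those of Ugt2b34, may bind more than 1 transcript.

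The 250 bases before the annotated start are shown for 3 genes on which the results below turn, Ugdh, with the lowest unadjusted p among the 9, and Ugt2b1 and Sult1d1, with the highest ratios of the SD among Gsr-null livers to that among WT livers. The sequences are from RefSeq, build GRCm38.p6, and each is on the minus strand, at chr5:65435843-65436092 for Ugdh, chr5:86926504-86926753 for Ugt2b1 and chr5:87569007-87569256 for Sult1d1. Capitals mark matches to the motifs given in the next paragraph.
Ugdh: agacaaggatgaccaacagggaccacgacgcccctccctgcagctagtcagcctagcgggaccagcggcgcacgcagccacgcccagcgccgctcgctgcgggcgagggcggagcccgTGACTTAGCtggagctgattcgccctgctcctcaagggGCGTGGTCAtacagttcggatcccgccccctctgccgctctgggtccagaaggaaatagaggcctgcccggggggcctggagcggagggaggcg
Ugt2b1: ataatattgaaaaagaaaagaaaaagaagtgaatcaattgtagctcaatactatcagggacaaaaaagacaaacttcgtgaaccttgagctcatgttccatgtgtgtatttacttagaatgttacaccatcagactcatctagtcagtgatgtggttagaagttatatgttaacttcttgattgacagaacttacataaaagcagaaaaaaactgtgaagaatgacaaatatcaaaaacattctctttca
Sult1d1: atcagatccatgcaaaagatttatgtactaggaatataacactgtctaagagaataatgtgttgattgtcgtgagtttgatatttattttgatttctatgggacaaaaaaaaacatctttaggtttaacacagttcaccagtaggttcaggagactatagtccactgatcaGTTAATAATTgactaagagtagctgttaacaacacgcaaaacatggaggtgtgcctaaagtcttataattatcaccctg

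The motifs searched, on both strands, were TGACNNNGC, the core of the antioxidant response element bound by NRF2, GTTAAT and ATT with any 1 base between them, the core of the site of the hepatocyte factor HNF1, and TATAAA, the TATA box. All 10 genes matched a promoter, 12 promoters in all. Ugdh held 2 matches to the antioxidant response element core, starting at base -132 on its own strand and at base -94 on the opposite strand, base -1 being the last before the start. Of all 32851 promoters 10.2% held at least 1 such match and 0.658% held at least 2. Sult1d1 held 1 match to the HNF1 core, starting at base -79, which 0.371% of all promoters held. No member promoter held TATAAA in this window, against 12.4% of all promoters, and Ugt2b1 held none of the 3 motifs. The GC content was 69.2% for Ugdh, against 31.2% for Ugt2b1 and 34% for Sult1d1. A match is only a run of letters and was not tested as a binding site.

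Pearson's r between samples was 0.935 to 0.989 across the 9560 tested probe sets. Gsr itself fell by 1.83 on its representative probe set and was lower in every Gsr-null liver than in any WT liver (SE 0.123, limma adjusted p = 1.82e-05). All 9 hepatocyte markers with a probe set passed the filter, whereas 0 of 6 neutrophil and 0 of 5 cholangiocyte markers did. Markers of Kupffer cells and macrophages passed in 9 of 10 cases, of sinusoidal endothelium in 6 of 7, of stellate cells and fibroblasts in 4 of 7 and of erythroid cells in 1 of 2, and limma called 0 of the markers of any list. At an unadjusted p under 0.05, limma gave 1 of 9 hepatocyte, 1 of 6 endothelial, 1 of 4 stellate and 1 of 1 erythroid markers tested. It gave 0 of the 9 Kupffer cell and macrophage markers. Of all genes tested, limma gave 8.78% at that threshold and called 0.432% at an adjusted p under 0.05. For the control probe sets of Gapdh and Actb, the mean 3' minus 5' difference, a measure of RNA integrity and labelling, was 0.544 to 0.703 in 3 Gsr-null and 2 WT samples and 1.2 to 1.75 in 3 Gsr-null and 3 WT samples, called the sets of low and of high 3' minus 5' controls below. Gsr-null sample 6 had the fewest probe sets past that filter level, 9094, while the other Gsr-null samples had 9459 to 9551 and WT samples 9377 to 9603.

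None of the 9 measured genes passed the test in either direction. Of all 6022 genes tested, limma called 26 at an adjusted p under 0.05, which is 0.432%, with 0.216% called higher and 0.216% called lower. At an unadjusted p under 0.05, limma gave 1 of the 9, Ugdh, against 8.78% of all genes. By probe set limma called 0 of 13, against 0.387% of all (0.167% higher and 0.22% lower). In 0 of the 9 genes did the groups fail to overlap, against 1.51% of all genes. The differences, Gsr-null minus WT, ran from -0.29 to 0.48, with 4 above 0 and 5 below. Their median was -0.0269, beside -0.032 over all genes tested. Since livers were measured whole, fewer cells of a type and less RNA per cell cannot be told apart.

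**Figure D1:**
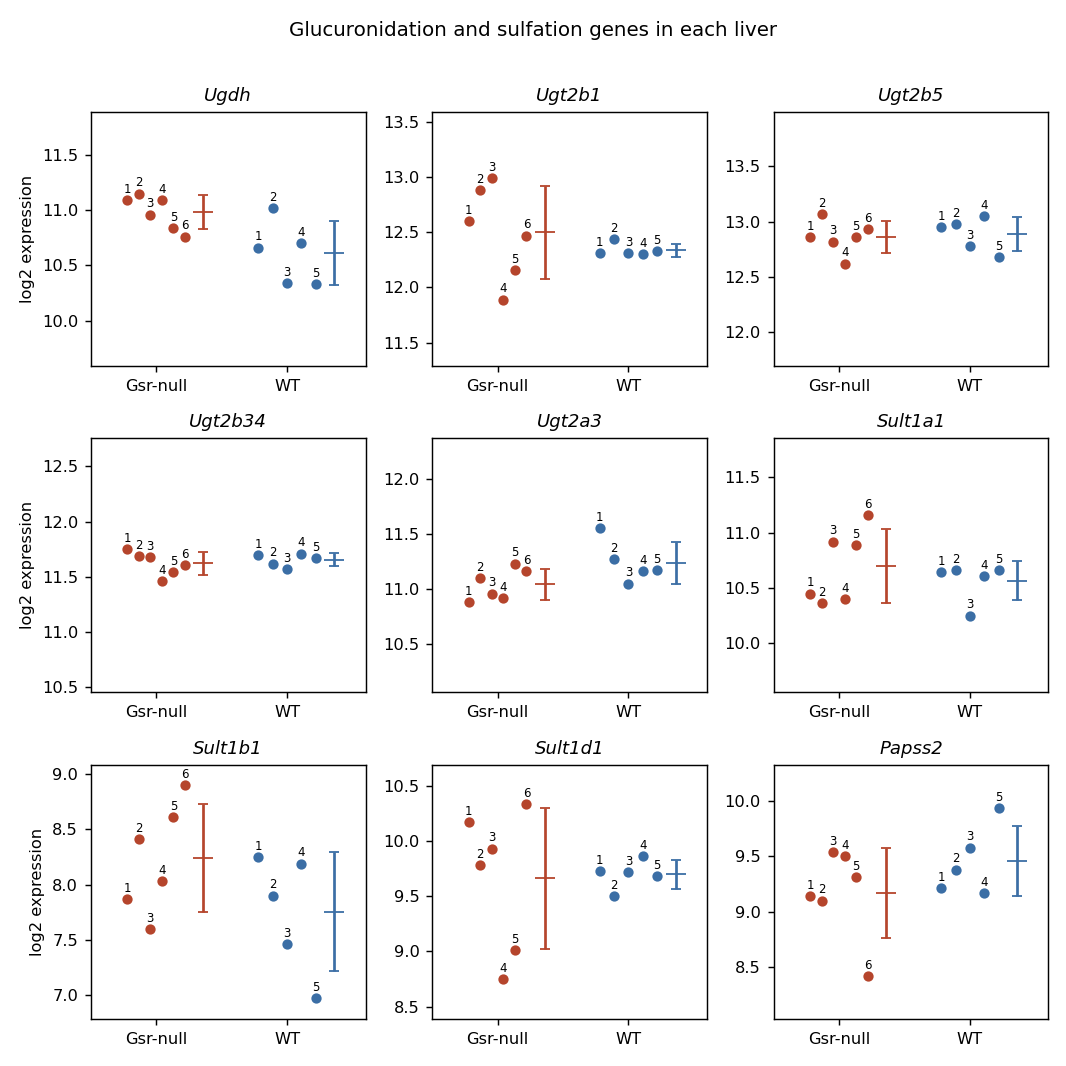
Log2 expression (vertical axes) of the representative probe set of each measured gene in every Gsr-null (red, n = 6) and WT (blue, n = 5) liver, labelled by replicate number. The bar beside each group is the mean ± SD, and all vertical axes span the same range. The 2 groups overlap for each gene, and Gsr-null samples 4 and 5 lie below all WT samples for Ugt2b1 and Sult1d1.

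Ugdh, which supplies UDP-glucuronate, came nearest to a change. Its values were 11.09, 11.15, 10.96, 11.09, 10.84 and 10.76 in Gsr-null samples 1 to 6, against 10.66, 11.02, 10.34, 10.70 and 10.33 in WT samples 1 to 5. The groups overlapped through WT sample 2, while the other 4 WT samples lay below every Gsr-null sample. Ugdh averaged 10.98 ± 0.156 (SD, n = 6) in Gsr-null livers and 10.61 ± 0.286 (SD, n = 5) in WT livers. The difference of 0.37 had an SE of 0.143 and a 95% confidence interval from 0.058 to 0.68, or 1.04-fold to 1.6-fold. It did not pass over all probe sets (limma adjusted p = 0.486, unadjusted p = 0.0238, exact two-sided permutation p = 0.0238). It was 0.21 within the set of low 3' minus 5' controls and 0.45 within the set of high ones.

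No UGT passed the test. Ugt2b5 had the smallest difference, with a lowest, median and highest value of 12.62, 12.86 and 13.07 in Gsr-null livers and 12.68, 12.95 and 13.05 in WT livers. The difference was -0.0269 (SE 0.114, limma adjusted p = 0.999), with an interval from -0.27 to 0.22, so that a change beyond 0.827-fold or 1.17-fold lies outside it. Ugt2a3, another UGT of the endoplasmic reticulum, ran from 10.88 through a median of 11.03 to 11.23 in Gsr-null livers, against 11.05, 11.17 and 11.55 in WT livers. Of the 6 Gsr-null samples, 3 lay below every WT sample, yet the groups overlapped. The difference was -0.20 (SE 0.12, limma adjusted p = 0.776), with an interval from -0.46 to 0.062, and without WT sample 1 it was -0.12.

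The 2 probe sets of Ugt2b34 gave differences of opposite sign, both close to 0. The probe set with the higher mean, an _s_at one, ran from 11.46 to 11.75 in Gsr-null livers and from 11.57 to 11.71 in WT livers, a difference of -0.032 (SE 0.0946, limma adjusted p = 0.995). The other ran from 11.2 to 11.92 in Gsr-null livers and from 11.22 to 11.76 in WT livers, a difference of 0.046 (SE 0.162, limma adjusted p = 0.999). Neither gives Ugt2b34 a direction.

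Ugt2b1 was uneven among Gsr-null livers and nearly constant among WT livers. It was 12.60, 12.88, 12.99, 11.89, 12.16 and 12.47 in Gsr-null samples 1 to 6, against 12.31, 12.44, 12.31, 12.30 and 12.33 in WT samples 1 to 5. Gsr-null samples 4 and 5 lay below all WT samples and the other 4 above all of them. The SD was 0.42 in Gsr-null and 0.0596 in WT livers, a ratio of 7.05, and 0.697% of the 6022 genes had a ratio at least as large. The median ratio over all genes was 1.18. The means differed by 0.16 (SE 0.184, limma adjusted p = 0.947), with an interval from -0.24 to 0.56. Leaving out single samples gave 0.0646 (without Gsr-null sample 3) and 0.0867 (without sample 2) to 0.284 (without sample 4).

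Among the SULTs, Sult1d1, a sulfotransferase of catecholamines and other phenols, showed the same unevenness. It was 10.17, 9.78, 9.93, 8.75, 9.01 and 10.33 in Gsr-null samples 1 to 6, against 9.73, 9.50, 9.72, 9.86 and 9.68 in WT samples 1 to 5. Samples 4 and 5 were again the 2 lowest of all, and samples 1, 3 and 6 lay above every WT sample. The second probe set of the gene placed samples 4 and 5 lowest too, at 6.37 and 6.88, with the other Gsr-null samples at 7.59 to 7.77, against 7.20 to 7.65 in WT livers. The SD of the first was 0.64 in Gsr-null and 0.129 in WT livers, a ratio of 4.96 that 1.56% of genes reached. The means differed by only -0.036 (SE 0.266, limma adjusted p = 0.999), but the interval, from -0.61 to 0.54, is wide. The difference in spread was not tested, for this gene or for Ugt2b1.

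The low values of Gsr-null samples 4 and 5 were set beside what else is known of the arrays. Their 3' minus 5' differences were 1.2 and 1.25, and that of sample 6, which had the highest Sult1d1, was 1.24. All 3 belong to the set of high 3' minus 5' controls, and the differences turned sign with the set. Ugt2b1 differed by 0.45 within the low set and by -0.14 within the high one. Sult1d1 differed by 0.28 within the low set and by -0.35 within the high one, and its second probe set by 0.27 and -0.42. The part of the 3' minus 5' difference in these values was not tested.

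Gsr-null samples 4 and 5 were the 2 lowest of all 11 samples for 3 of the 9 members, Ugt2b1, Ugt2b34 and Sult1d1, against 2.89% of all genes tested. They were the 2 highest for 0 of the 9, against 8.42% of all. Each gene was counted on its representative probe set. On the other probe set of Ugt2b34, samples 4 and 5 ranked 4 and 1 from the lowest, so they were not the 2 lowest there. Among the 18 other pathway genes they were the 2 lowest for Ugt2b38 and the 2 highest for Slc35b2 and Abcc3. Among 13 regulators they were the 2 lowest for Ahr and Bcl6 and the 2 highest for Nr1i2. These counts describe a pair of samples picked out by their values, those of Ugt2b1 and Sult1d1 among them. Ugt2b38, a UGT of the same block, stood at 5.80 in Gsr-null sample 4, 4.84 in sample 5 and 7.42 to 9.40 in the remaining Gsr-null livers, against 6.78 to 8.55 in WT livers, and differed by 1.89 within the low set and by -2.16 within the high one. The transcriptional repressor Bcl6 stood at 5.04 and 5.27 in those livers and at 7.77 to 9.89 in the remaining Gsr-null livers, against 5.63 to 8.97 in WT livers, and differed by 1.79 within the low set and by -0.79 within the high one. Ahr, the aryl hydrocarbon receptor, stood at 6.96 and 7.10 there and at 7.92 to 8.50 in the remaining Gsr-null livers, against 7.60 to 8.71 in WT livers. Nr1i2, the pregnane X receptor, stood at 6.62 and 6.54 there and at 4.77 to 5.88 in the remaining Gsr-null livers, against 5.83 to 5.95 in WT livers. On the second tested probe set of Nr1i2 samples 4 and 5 stood at 5.26 and 5.13, below Gsr-null sample 3 (5.33) and not both above WT sample 2 (5.31). All 4 genes are named here after their values were seen, and their part in the low values was not tested. Without Gsr-null sample 4 the difference of Sult1d1 was 0.147, without sample 5 it was 0.0935 and without WT sample 4 it was 0.00421, so its sign depends on single samples.

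**Figure D2:**
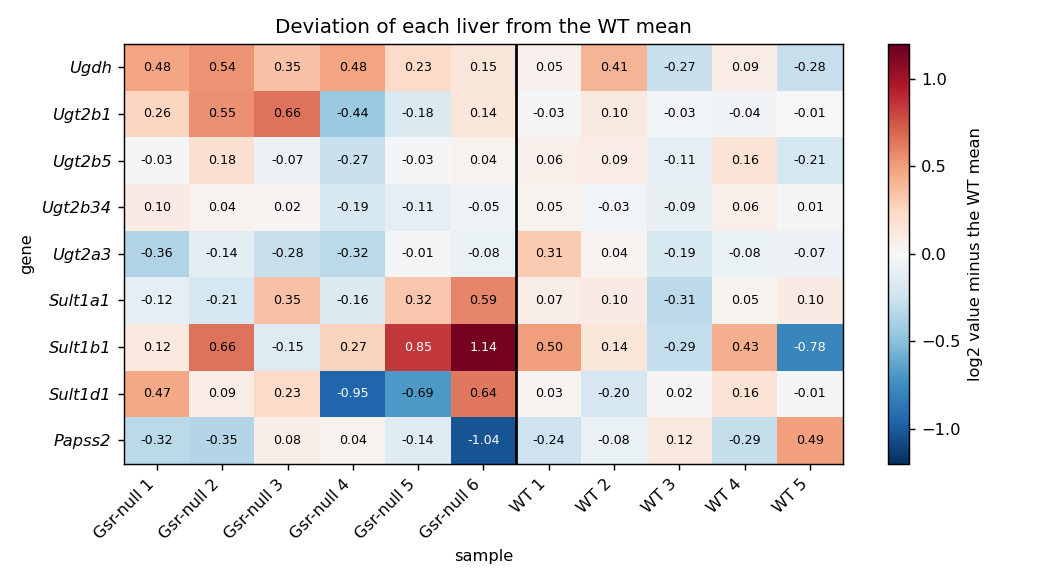
Log2 value of each gene (rows, representative probe set) in each liver (columns) minus the mean of the 5 WT livers, with Gsr-null samples left of the line and WT samples right of it. Red is above and blue below the WT mean. Sult1d1 was 0.951 and 0.685 below the WT mean in Gsr-null samples 4 and 5 and 0.636 above it in sample 6.

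Sult1a1, the main phenol sulfotransferase, ran from 10.36 through a median of 10.67 to 11.16 in Gsr-null livers, against 10.25, 10.64 and 10.66 in WT livers. Gsr-null samples 3, 5 and 6 lay above every WT sample and the other 3 within the WT range. The difference was 0.13 (SE 0.166, limma adjusted p = 0.963), with an interval from -0.23 to 0.49, and leaving out single samples gave 0.037 (without Gsr-null sample 6) to 0.197, with 0.0514 without WT sample 3. Its one probe set is an _a_at one, which can bind several transcripts of a gene.

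Sult1b1, which sulfates thyroid hormones and phenols, had the largest difference of the 9 genes and the largest SE. It ran from 7.60 through a median of 8.22 to 8.90 in Gsr-null livers, against 6.97, 7.90 and 8.25 in WT livers. The groups overlapped over most of their range, with Gsr-null samples 2, 5 and 6 above every WT sample. The difference was 0.48 (SE 0.279, limma adjusted p = 0.748), with an interval from -0.13 to 1.09, and without WT sample 5 it was 0.284. It was -0.084 within the set of low 3' minus 5' controls and 0.95 within the set of high ones, so it was not seen in both.

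Papss2, the PAPS synthase, was measured by 4 probe sets, of which 3 were tested and all 3 differed in the same direction without passing. The representative one ran from 8.42 through a median of 9.22 to 9.54 in Gsr-null livers, against 9.17, 9.38 and 9.94 in WT livers. Gsr-null sample 6 lay lowest, and the others within or just below the WT range. The difference was -0.29 (SE 0.21, limma adjusted p = 0.862), and the others gave -0.27 and -0.32. Without Gsr-null sample 6 it was -0.139, and without WT sample 5 it was -0.167. The representative probe set differed by -0.015 within the set of low 3' minus 5' controls and by -0.50 within the set of high ones. The second tested probe set gave -0.56 and -0.18 there, and the third -0.53 and -0.30. The third averaged 3.93 in Gsr-null and 4.253 in WT livers, near the filter level. The fourth probe set was not tested, at 2.2 to 2.64 in Gsr-null and 2.06 to 2.45 in WT livers, with means that differed by 0.094.

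**Figure D3:**
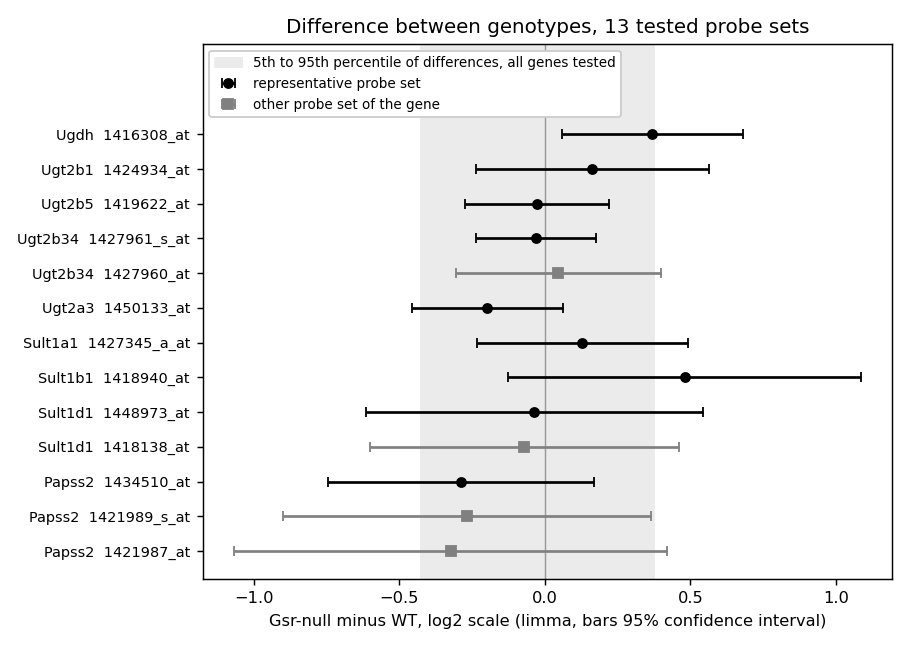
Difference in log2 expression, Gsr-null minus WT (horizontal axis), with its 95% confidence interval for the 13 tested probe sets, circles marking the representative probe set of a gene and squares the others. The grey band spans the 5th to 95th percentile of the differences of all genes tested, -0.426 to 0.376. The interval of Ugdh alone leaves out 0, and its adjusted p was 0.486.

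How the genes varied from liver to liver was compared over all 36 pairs of the 9 genes, after subtracting each genotype's mean. Sult1b1 and Papss2 ran opposite to each other, with Pearson's r = -0.837 (permutation p = 0.00089, adjusted p = 0.032 over the 36 pairs, 11 samples) and Spearman's rho = -0.836 (permutation p = 0.00242, adjusted p = 0.0871). Without the 2 samples farthest from the median of Sult1b1, r was -0.724. Papss2 stands here for its representative probe set alone. With rank 1 the lowest of 11, Gsr-null sample 1 ranked 3 on it but 11 and 10 on the other tested probe sets. WT sample 5 ranked 11 on it against 7 and 7, while Gsr-null sample 6 ranked 1 on each. Correlations with the other probe sets were not computed. Within the 6 samples with high 3' minus 5' controls r was -0.845 and rho -0.829 (exact permutation p = 0.0319 for r), and none was computed for the other set, of 5 samples, since correlations were limited to 6 samples or more. No other pair passed the adjustment, and by rho 0 of the 36 did. The permutations shuffled deviations without regard to genotype and made no allowance for the subtracted means. Their p-values can therefore be too small. Whether the Pearson result would pass with that allowance was not tested. Ugt2b34 and Sult1d1 gave r = 0.751 (permutation p = 0.00755, adjusted p = 0.115), with rho = 0.709 (permutation p = 0.0182, adjusted p = 0.219) and r = 0.464 without 2 samples.

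**Figure D4:**
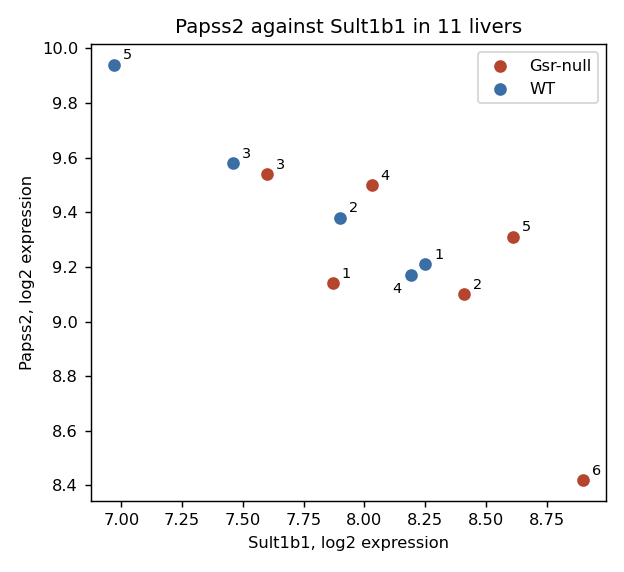
Log2 expression of Papss2 (vertical axis, representative probe set) against that of Sult1b1 (horizontal axis) in 6 Gsr-null (red) and 5 WT (blue) livers, labelled by replicate number. Gsr-null sample 6, with the highest Sult1b1 and lowest Papss2, and WT sample 5, with the lowest Sult1b1 and highest Papss2, lie at opposite ends.

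The genes whose values over the 11 samples, less the genotype means, were most like those of Ugdh were Riox2 (r = 0.893), Fbxo3 (r = 0.888) and Gtf2a1 (r = 0.885). Those most like Papss2, on its representative probe set, were Cdk4 (r = 0.966), Puf60 (r = 0.965) and Dnajc30 (r = 0.95). Without the 2 samples farthest from the member's median, r was 0.802 to 0.887 for Ugdh and 0.881 to 0.924 for Papss2. These are the highest of 6021 values each and share their arrays, so no p is given.

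Of 49 other genes of the 2 pathways, 26 had a probe set of their own and 18 passed the filter, of which 10 differed upward and 8 downward. None passed the test, against 0.432% of all genes tested. At an unadjusted p under 0.05 limma gave 2 of the 18, Slc26a1 and Papss1, against 8.78% of all genes. The median difference of the 18 was 0.039, beside the -0.032 over all genes tested. Slc26a1, a transporter that carries sulfate, was 9.49 to 10.14 in Gsr-null livers and 8.40 to 9.55 in WT livers, a difference of 0.56 (SE 0.216, limma adjusted p = 0.484). It was 0.352 without WT sample 4, and 1.06 within the low and 0.18 within the high 3' minus 5' set. Papss1, the other PAPS synthase, was 4.58 to 5.22 in Gsr-null livers and 4.41 to 4.68 in WT livers, a difference of 0.37 (SE 0.143, limma adjusted p = 0.487), with 0.57 within the low set and 0.14 within the high one. Papss1 thus lay near the filter level of 4, and without Gsr-null samples 2 and 3 its difference was 0.243. Both groups of values overlapped, by WT samples 3 and 5 for Slc26a1 and by Gsr-null sample 6 for Papss1.

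Ugt2b37, a UGT of the block, differed by 0.81 (SE 0.411, limma adjusted p = 0.664) and Sult5a1, a sulfotransferase, by 1.17 (SE 0.634, limma adjusted p = 0.697). Ugt2b37 lay near the filter level of 4, with a mean of 4.955 in Gsr-null and 4.149 in WT livers. It differed by 0.481 without Gsr-null sample 1, and by 1.86 within the low 3' minus 5' set and -0.079 within the high one. Sult5a1 differed by 0.726 without WT sample 4. Sult5a1 was uneven among WT livers, with 6.07 to 7.79 in Gsr-null livers, against 5.93, 4.66, 7.81, 4.35 and 7.81 in WT samples 1 to 5. Its difference was 3.07 within the set of low 3' minus 5' controls and -0.20 within the set of high ones. Genes on either side of the transferases, named here for their place in the pathways with their values known, did not pass either. Ugp2, which makes UDP-glucose, differed by -0.23, Slc35d1, which carries UDP-glucuronate into the endoplasmic reticulum, by -0.097, and the conjugate exporters Abcc2 and Abcc3 by 0.061 and 0.49. Bpnt1, which breaks down the PAP left by sulfation, differed by 0.14. Within the low and the high 3' minus 5' sets, Ugp2 differed by -0.58 and 0.087, Abcc2 by -0.11 and 0.14, and Abcc3 by -0.20 and 1.04. Slc35d1 and Bpnt1 kept their sign in both sets.

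Among 13 tested regulators of the pathways 0 were called, and 0 had an unadjusted p under 0.05 by limma. The pioneer factor Foxa1 was nearest, at 5.11 to 7.25 in Gsr-null livers and 5.35 to 7.33 in WT livers, a difference of -0.86 (SE 0.424, limma adjusted p = 0.638). The bile acid receptor Nr1h4 differed by -0.22, Stat5b, which carries the growth hormone signal, by 0.13, and Keap1, the inhibitor of NRF2, by 0.16. Keap1 differed by 0.61 within the low 3' minus 5' set and by -0.21 within the high one. Foxa1, Nr1h4 and Stat5b kept their sign in both sets.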

How the data were processed

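Liver RNA of 6 Gsr-null and 5 WT mice was measured on single-colour Affymetrix mouse arrays. Each deposited value is the log2 level of 1 probe set in 1 sample, made by the authors with GCRMA, per the submitters' processing notes. This method subtracts a background predicted from probe sequence, equalises the arrays and combines the probes of a probe set. Its version was not found in the labels. That the values are log2 was read from their range and the nearly equal quantiles of the arrays.

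Of 22690 probe sets 64 controls were left out. Of the rest 20380 had 1 symbol in the platform annotation, 691 had several, among them 3 shared by 8 Ugt1a symbols, and 1555 had none. Only those with 1 symbol were named, and the 14 probe sets here carry the symbols of the RefSeq table (GRCm38.p6). The 9560 probe sets past the filter (log2 value over 4, 5 samples or more) entered 1 limma fit (version 3.58.1, R 4.3.3, lmFit and eBayes), with Benjamini-Hochberg adjustment across the whole set and an adjusted p under 0.05 as a call. Where a gene had several tested probe sets, the one of highest mean represents it. The number of arrays limits the precision. Nothing in the labels ties replicates to litters or batches. Exact permutation p-values run over all 462 assignments of the 11 samples to groups of 6 and 5, the smallest being 0.00216. Correlations of members used 100000 permutations. Matplotlib 3.10.9 (Python 3.11.15) drew the figures, and promoters were searched in the same Python.

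The members, lists and motifs were chosen with earlier results of these data known. Named besides the members are Gsr, the 4 genes of each of 2 fixed lists with the smallest p, the 3 genes most like Ugdh and Papss2 each, and genes marked in the text as named with their values known. The closing section gives alternatives for the filter, scale, variance model, array weights, blocks, threshold, choice of probe set, test and samples. The fit was tested on simulated data.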

Additional observations from a re-analysis of the deposited data

Results flagged for a closer look

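In 12 of 112 groups of values, taken over the genes named here and the other pathway genes, a single sample lay well away from its group. At about 1 in 20, chance would give 5.6 if the groups were independent. They share the same arrays, and some are probe sets of 1 gene, so no excess over chance can be read from the count. Among the members, Ugt2b1 reached 12.44 in WT sample 2, with the remaining WT livers at 12.3 to 12.33, and Sult1a1 was down at 10.25 in WT sample 3, with the remaining ones at 10.61 to 10.66.

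WT sample 4 stood apart in 4 of the 12. There Sult3a1 was 4.3, the remaining WT livers being at 1.29 to 2.11, and Sult2a2 was 3.88, against 1.95 to 2.34. Both are sulfotransferases known from mouse as female-biased in liver, and neither was tested, since neither passed the filter. In the same sample Slc26a1 was 8.4, against 9.36 to 9.55, and Slc35b2, a PAPS transporter, 4.59, against 4.8 to 4.89.

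Gsr-null sample 3 stood apart in 3, with Foxa1 at 7.25, the remaining Gsr-null livers being at 5.11 to 5.5, 1 probe set of Bpnt2 at 6.48, against 6.96 to 7.23, and 1 of Ugt3a1 at 5.27, against 6.51 to 7.19. Sult5a1 was 6.07 in Gsr-null sample 5, against 7.16 to 7.79, and Stat5b 7.52 in Gsr-null sample 2, against 6.95 to 7.13. Slc35b3 was 5 in WT sample 1, against 5.54 to 5.63.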

How the results depend on the processing

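No member, other pathway gene or regulator was called under any of the 24 alternatives, and the median difference of the members lay between -0.063 and 0.147. For 2 of the 24 this says little. A threshold of 0.01 could not add a call, and the exact permutation test called no probe set at all. Of 198 values of single members, 188 kept their direction. Ugt2b5 turned to 0.00893 with arrays centred on their median and 0.0221 with array weights, Ugt2b34 turned to 0.00378 with centred arrays and 0.00713 with the mean of its probe sets, and Ugt2b1 turned to -0.0557 and the regulator Keap1 to -0.0273 without Gsr-null samples 2 and 3. Leaving out 1 sample gave -0.171 to 0.147 for Sult1d1 and -0.0789 to 0.0217 for Ugt2b5. Ugdh stayed between 0.3 and 0.471, with an adjusted p of 0.23 to 0.788. Over all probe sets limma called 16 as higher and 21 as lower. A filter at 6 left 7 and 7, omitting Gsr-null samples 2 and 3 together left 6 and 4, and a threshold of 0.01 left 7 and 5. A threshold of 0.1 gave 25 higher. The exact permutation test, whose smallest p is too large to pass, gave 0 and 0, and omitting single samples gave 9 to 24 higher and 5 to 19 lower. With the replicate number as a block, which also omits Gsr-null sample 6 because no WT sample shares its number, the counts were 2 and 1. Omitting that sample alone gave 24 and 18. These numbers do not pair the samples, as deviations of same-numbered samples correlated at -0.243 to 0.0361 and 0 of 5 WT samples matched their own number best. Apart from fewer samples or probe sets and other thresholds, the cause was not tested.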
